A study of Mus musculus with 3 samples.

Results

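The miR-216 and miR-217 cluster is a group of 3 miRNA hairpins, miR-216b, miR-216a and miR-217, each of which gives a 5p and a 3p mature form. All 6 mature forms were among the 1915 miRNAs listed for the mouse retina, and all 6 passed the filter used below, an average of 1 RPM or more over the 3 libraries, where RPM is the reads of a miRNA scaled to a library of 1000000 miRNA reads. This filter kept 648 miRNAs in all. The members were taken by name, but the group itself was chosen by its reads and RPM across the 3 ages, which were already known, so that these values are given as a description and without a test. Retinas came from C57BL/6 mice (C57BL/6J in the study's methods) with no treatment or genetic change named in the labels, aged postnatal day 1 (P1), P7 or P17. At each age the retinas of 5 eyes were pooled into 1 library. No difference between ages therefore has a replicate check, and age cannot be told apart from anything else that differed between the 3 libraries. Intervals in the text are 95% intervals of counting error, which do not cover the spread between animals, and copies made by PCR cannot be told from separate molecules here.

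A miRNA hairpin is cut into a short duplex, of which one strand is usually loaded into Argonaute and pairs through its seed, bases 2 to 8, with messenger RNAs. The miR-216 and miR-217 hairpins are best known from the pancreas, where they mark acinar cells, the cells that secrete digestive enzymes. In the eye, miR-216a acts on the Notch pathway through Snx5 in the zebrafish retina, and miR-216b has been tied to the generation of amacrine cells, inhibitory interneurons of the inner retina, through its target Foxn3. MiR-217 is known as a regulator of Sirt1, a deacetylase. The levels of these targets were not measured in these libraries.

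The mature sequences are shown because the members differ in what they can pair with, and because the closeness of miR-216a-5p and miR-216b-5p bears on how reads could be assigned. They were taken from RefSeq (GRCm38.p6), which held all 6 members, and are written 5′ to 3′ with the seed in capitals.
mmu-miR-216a-5p: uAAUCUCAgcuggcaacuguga
mmu-miR-216b-5p: aAAUCUCUgcaggcaaauguga
mmu-miR-217-5p: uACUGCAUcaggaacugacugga
mmu-miR-216a-3p: cACAGUGGucucugggauuaug
mmu-miR-216b-3p: aCACUUACcuguagagauucuu
mmu-miR-217-3p: cAUCAGUUccuaaugcauugccu

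MiR-216a-5p and miR-216b-5p were identical at 18 of 22 bases. Counted from 1 at the 5′ end of miR-216a-5p, they differed by U1A, A8U, U11A and C17A. Only A8U lies in the seed, so that 6 of the 7 seed bases were shared. The 3p forms of the same hairpins have different seeds, and miR-217 shares a seed with neither. None of the 6 seeds occurred in another mature miRNA among the 1679 mouse mature forms in the RefSeq table. Each member thus stood alone in its seed group by this definition. The counting rule behind the deposited reads is not given in the sources used here, so that some reads of the miR-216a and miR-216b 5p forms could have been shared between them.

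The 3 hairpins lie on the plus strand of chromosome 11 within 17645 bp (GRCm38, the same build as mm10). Mir216b (ENSMUSG00000076318) is at chr11:28746191-28746276, Mir216a (ENSMUSG00000065539) at chr11:28757012-28757083 and Mir217 (ENSMUSG00000065415) at chr11:28763728-28763835. The gaps between neighbours were 10735 bp and 6644 bp. In the GENCODE annotation Mir216a and Mir217 fall in an intron of the long non-coding RNA gene Gm12082 (ENSMUSG00000085510), and Mir216b falls in no other gene. RefSeq places Mir216b inside the non-coding gene Mir217hg, and Mir216a and Mir217 inside another non-coding gene, Gm40818. Another annotated hairpin, Mir216c, lies on the opposite strand over Mir216b. The miR-216c-5p sequence is complementary to miR-216b-3p over a run of 22 bases, and miR-216c-3p is complementary to miR-216b-5p over 17. Both forms of miR-216c had 0 reads at every age, which allows levels (3 reads) of up to 0.263 RPM in the P1 library, 0.235 RPM in the P7 library and 0.257 RPM in the P17 library. No reads were thus assigned to the hairpin on the opposite strand.

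The libraries held 11426320 to 12759995 miRNA reads, and 1 read was worth 0.0784 to 0.0875 RPM. The labelled tissue was checked against miRNAs known from retinal neurons, and these 5 miRNAs (miR-124-3p, miR-9-5p, miR-182-5p, miR-183-5p and miR-96-5p) summed to 223656 RPM in the youngest library, 432211 RPM in the middle one and 387928 RPM in the oldest. Of these, miR-9-5p went down, from 144259 RPM at P1 to 74010 RPM at P17, while the others were higher at P17 than at P1. Markers of other cells were present. The 2 arms of the endothelial miR-126a summed to 1261, 3643 and 8530 RPM in order of age, and the mural cell miRNAs miR-143-3p and miR-145a-5p to 195, 376 and 1492 RPM. The inner retina miRNAs miR-181a-5p and miR-181b-5p went from 70160 RPM at P1 to 117545 RPM at P17. In order of age, red cell miRNAs (2) summed to 46.65, 12.86 and 32.33 RPM and leukocyte miRNAs (3) to 7.62, 10.5 and 26.84 RPM. Muscle miRNAs (3) summed to 132.4, 89.97 and 240.14 RPM. Corneal and lens epithelial miRNAs (3) summed to 356.28, 269.27 and 645.3 RPM. Pigment epithelium miRNAs that the retina also expresses (2) summed to 15211, 7226 and 14334 RPM. The liver miRNA miR-122-5p had 5.78, 2.27 and 3.6 RPM. The red cell, muscle, corneal and lens, pigment epithelium and liver levels were lower at P7 than at P1, as was the cluster (below). The endothelial, mural cell, inner retina and leukocyte sums were higher at P7 than at P1. Each of the levels named in these 2 sentences was higher at P17 than at P7, unlike the cluster. These are sums, except for liver, and not every miRNA in them went the same way. Among the epithelial miRNAs, miR-203-3p was lower at both steps, like the cluster, with 252.84, 149.92 and 75.73 RPM. The muscle miRNA miR-206-3p went from 22.73 RPM at P7 to 16.9 RPM at P17. The part of such cells in the levels of the cluster was not tested. In whole retina, fewer cells of a type and less RNA per cell cannot be told apart.

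The cluster was most abundant at P1 and much lower at P7. Together the 6 forms took 45904 reads in the P1 library, 7455 in the P7 library and 3542 in the P17 library. As a sum this was 4017 RPM in P1 retina (Wilson interval 3981 to 4054), 584 RPM in P7 retina (571 to 598) and 304 RPM in P17 retina (294 to 314), or 0.402%, 0.0584% and 0.0304% of the miRNA reads. The sum was 6.88-fold lower at P7 than at P1 (exact binomial interval 6.71 to 7.05), 1.92-fold lower at P17 than at P7 (1.85 to 2.00) and 13.2-fold lower at P17 than at P1 (12.8 to 13.7). Both steps went down by more than the counting error. On the log2(RPM + 1) scale the differences were -2.78 for the first step and -0.94 for the second. Spread evenly over the 6 and 10 days, they came to -0.46 and -0.09 per day, so that most of the decline lay in the first postnatal week.

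**Figure D1:**
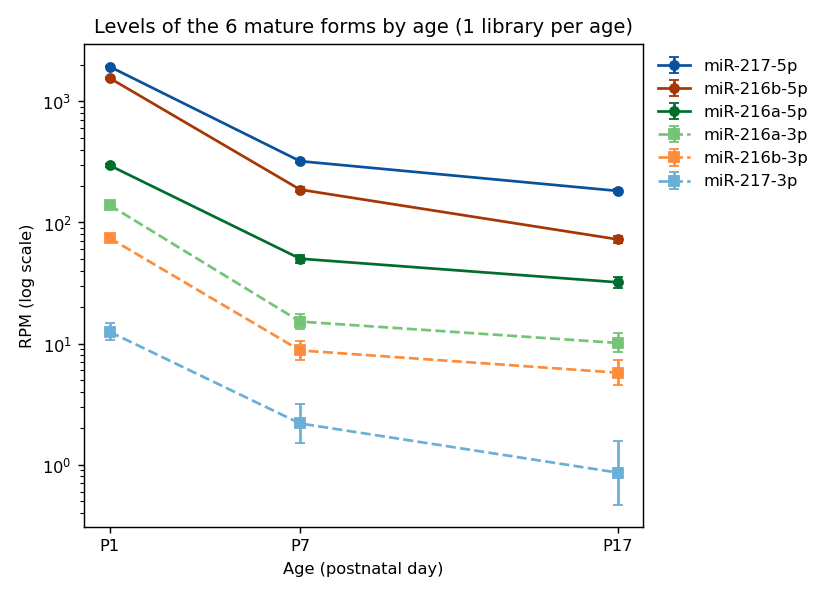
Level of each mature form in RPM (log axis) against age for the 3 libraries, with Wilson 95% intervals of counting error as bars, where circles and solid lines are 5p forms and squares and dashed lines 3p forms. Every form is highest at P1 and lowest at P17, and the order of the 6 forms is the same at each age, from miR-217-5p (1938 RPM at P1) down to miR-217-3p (12.5 RPM at P1).

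The amount of this decline depended on how the libraries were scaled. RPM is a share of the miRNA reads, and the photoreceptor miRNAs of the miR-183 hairpin group grew from 7.85% of the P1 reads to 30.6% of the P7 reads and 30.2% of the P17 reads. Their part in the scaling was not tested beyond leaving them out of the total, which gave a cluster difference of -2.37 from P1 to P7 and a median of all miRNAs of -0.54. The median log2 difference of all 648 miRNAs was -0.87 for the first step, -0.05 for the second and -0.91 over both. With median-of-ratios size factors, which bring these medians near 0, the cluster differed by -1.82 and -0.86 at the 2 steps and by -2.68 over both. Relative to the median of all miRNAs, its difference from P1 to P17 was -2.81 with RPM and -2.68 with either size factors or TMM factors. The change of the summed cluster was thus more negative than the median change of all miRNAs at each step, with RPM and with size factors.

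**Figure D2:**
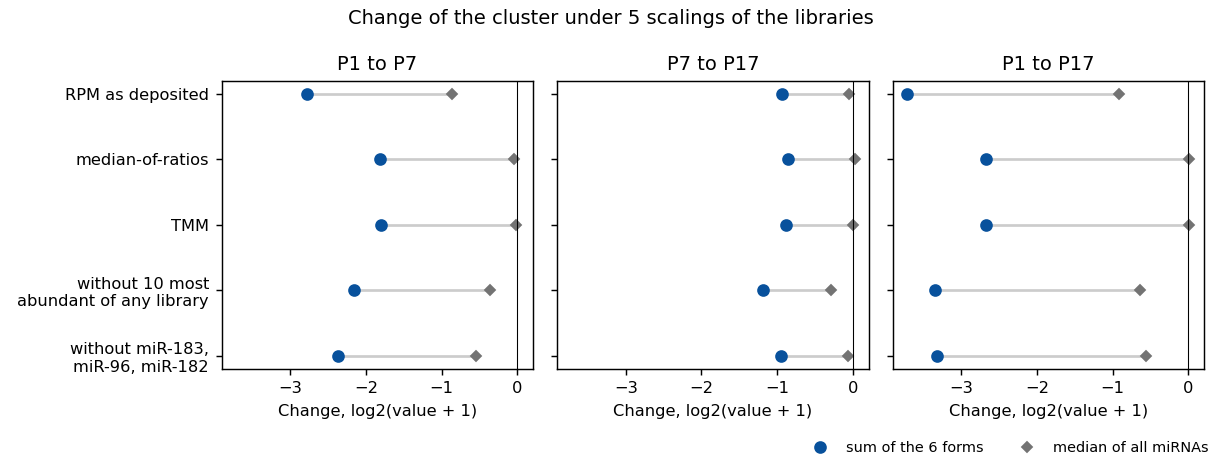
Change of the summed cluster (circles) and the median change of all 648 miRNAs (diamonds), on the log2(value + 1) scale, for each pair of ages under 5 scalings of the libraries. The circle lies below the diamond and below 0 in every panel and scaling, and from P1 to P17 it ranges from -3.72 with RPM to -2.68 with TMM factors.

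MiR-217-5p was the most abundant member. In order of age it had 22139, 4095 and 2127 reads, or 1938 RPM (1912 to 1963), 321 RPM (311 to 331) and 182.4 RPM (175 to 190). Among all miRNAs it held place 54, then 110 and then 149. The intervals of the 3 ages did not overlap, and the P1 library stood far above the others. MiR-217-5p was 6.04-fold lower at P7 than at P1 (5.84 to 6.24) and 1.76-fold lower at P17 than at P7 (1.67 to 1.85).

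MiR-216b-5p, the form tied to amacrine cells, was nearly as abundant as miR-217-5p at P1 and showed the largest decrease of the 6 members from P1 to P17 on the log2(RPM + 1) scale, at -4.41. In order of age it had 17799, 2385 and 846 reads, or 1558 RPM (1535 to 1581), 187 RPM (180 to 195) and 72.6 RPM (67.8 to 77.6). Its place in the library went from 65 to 143 and then 212. The 3 intervals were again separate, and the decrease continued after P7. The level was 8.33-fold lower at P7 than at P1 (7.98 to 8.70) and 2.58-fold lower at P17 than at P7 (2.38 to 2.79). At P17, 4.66% of the P1 level was left, against 9.42% for miR-217-5p and 10.8% for miR-216a-5p.

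MiR-216a-5p, which differs from miR-216b-5p at 1 seed base, was rarer. In order of age it had 3384, 641 and 374 reads, or 296 RPM (286 to 306), 50.2 RPM (46.5 to 54.3) and 32.1 RPM (29.0 to 35.5). It was 5.90-fold lower at P7 than at P1 (5.42 to 6.42), close to the value of miR-217-5p, and 1.57-fold lower at P17 than at P7 (1.38 to 1.78).

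The 3p forms were the less abundant arm of each hairpin and were also lower at each step. MiR-216a-3p had 1589, 194 and 118 reads in order of age, or 139 RPM, 15.2 RPM and 10.1 RPM, and was 9.15-fold lower at P7 than at P1 (7.88 to 10.7). MiR-216b-3p had 850, 112 and 67 reads, or 74.4 RPM, 8.78 RPM and 5.75 RPM, and was 8.48-fold lower at P7 than at P1 (6.95 to 10.4). From P7 to P17 these 2 forms were 1.502-fold (1.19 to 1.90) and 1.53-fold (1.12 to 2.10) lower, so that their later decrease was small and imprecise. MiR-217-3p was scarce throughout, with 143, 28 and 10 reads, or 12.5 RPM (10.6 to 14.7), 2.19 RPM (1.52 to 3.17) and 0.86 RPM (0.466 to 1.58). Its intervals at P7 and P17 overlapped by a narrow margin, and its ratio from P7 to P17, 2.56-fold lower, had an interval from 1.21 to 5.90.

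Within each library the order of the levels was miR-217-5p, miR-216b-5p, miR-216a-5p, miR-216a-3p, miR-216b-3p and miR-217-3p, and the intervals of neighbours in this order did not overlap at any age. RPM counts a read once whatever its length, and the mature forms have 22 or 23 bases. Adaptor ligation favours some small RNA ends over others, so that a level compared between 2 forms is a comparison of reads. How strongly this acted on these forms was not tested.

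A miRNA was counted as different between ages when it differed over 2-fold on the log2(RPM + 1) scale. From P1 to P7 all 6 members were over 2-fold lower, with differences between -3.11 for miR-216a-3p and -2.08 for miR-217-3p and a median of -2.77. Among all 648 miRNAs, 44.8% were over 2-fold lower in that comparison and 3.09% higher. From P1 to P17 all 6 were again over 2-fold lower, between -4.41 for miR-216b-5p and -2.86 for miR-217-3p with a median of -3.44, where 46.8% of all miRNAs were lower and 10.5% higher. Since the members were chosen with these levels known, nothing is read from these counts. The place of miR-217-3p as the least lowered form from P1 to P17 depends on the added 1 RPM, as it had 0.86 RPM at P17. By the ratio of reads per library total it was 14.6-fold lower at P17 than at P1 (7.71 to 31.1). That ratio was 21.5-fold for miR-216b-5p and 9.23-fold for miR-216a-5p. The numbers over 2-fold lower and higher among all miRNAs from P1 to P17 were 303 and 68 with RPM but 154 and 164 with size factors, and from P1 to P7 they were 290 and 20 against 71 and 62. All 6 members stayed over 2-fold lower in both comparisons with size factors.

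From P7 to P17 only miR-216b-5p was over 2-fold lower on the log2(RPM + 1) scale, at -1.35. In that comparison 11.6% of all miRNAs were lower and 14% higher, and no member was over 2-fold higher. The member next outside the limit was miR-217-5p at -0.81, followed by miR-217-3p at -0.78, miR-216a-5p at -0.63, miR-216a-3p at -0.54 and miR-216b-3p at -0.53. The value of miR-217-3p depends on the added 1 RPM. By the ratio of reads per library total it was 2.56-fold lower (1.21 to 5.90), against 2.58-fold for miR-216b-5p. The count at this step was 3 when the 10 most abundant miRNAs of any library were left out of the total, where 23.0% of all miRNAs were lower, and 2 with a pseudocount of 0.1 RPM, where 16.4% were. Ranked from the most lowered of the 648 miRNAs, the members held places 4 to 46 from P1 to P7, 41 to 194 from P7 to P17 and 10 to 61 from P1 to P17. On the log2(RPM + 1) scale 8.80% of all miRNAs were over 2-fold lower at both steps, as was miR-216b-5p. On the same scale 32.3% were so at the first step without an over 2-fold difference at the second, as were the other 5 members.

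**Figure D3:**
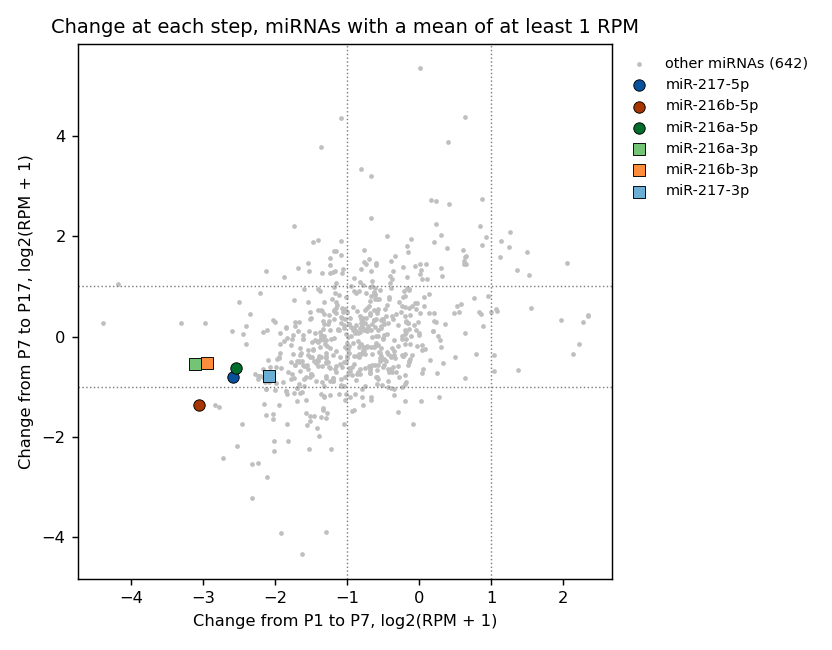
Change from P1 to P7 (x axis) against change from P7 to P17 (y axis), both on the log2(RPM + 1) scale, for the 648 miRNAs past the filter, with the 6 members in colour and dotted lines at a 2-fold difference. The members lie between -3.11 and -2.08 on the x axis, in places 4 to 46 from the left, and among them only miR-216b-5p is below the lower dotted line, at -1.35.

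The make-up of the cluster shifted away from miR-216b-5p, while the shares of both miR-217-5p and miR-216a-5p went up. Shares of reads within a library do not depend on the scaling between libraries. MiR-217-5p made up 48.2% of the cluster reads at P1 (exact binomial interval 47.8 to 48.7), 54.9% at P7 (53.8 to 56.1) and 60.1% at P17 (58.4 to 61.7). MiR-216b-5p made up 38.8% at P1 (38.3 to 39.2), 32.0% at P7 (30.9 to 33.1) and 23.9% at P17 (22.5 to 25.3). Neither set of intervals overlapped between ages, so that both shares moved at each step by more than counting error. MiR-216a-5p went from 7.37% (7.13 to 7.61) to 8.60% (7.97 to 9.26) and 10.6% (9.57 to 11.6).

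**Figure D4:**
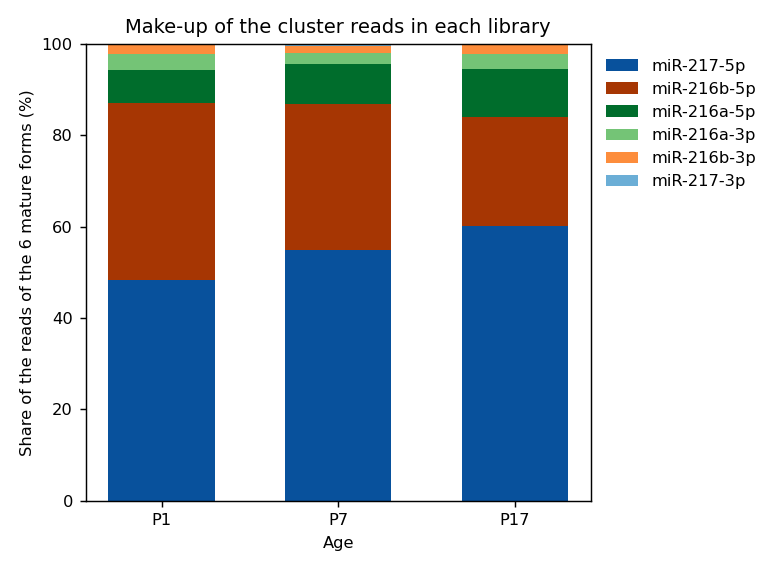
Share of each mature form in the reads of the 6 forms, in percent, as stacked bars for each library. MiR-217-5p widens from 48.2% to 60.1% and miR-216b-5p narrows from 38.8% to 23.9% between P1 and P17, while the 3p forms together stay between 4.48% and 5.62%.

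Ratios between members showed where the shift lay. The ratio of miR-217-5p to miR-216b-5p reads was 1.24 at P1 (1.22 to 1.27), 1.72 at P7 (1.63 to 1.81) and 2.51 at P17 (2.32 to 2.73). The ratio of miR-216b-5p to miR-216a-5p, the pair that shares most of its seed, was 5.26 (5.07 to 5.46), 3.72 (3.41 to 4.07) and 2.26 (2.00 to 2.56). Both moved at each step without overlap of the intervals. The ratio of miR-217-5p to miR-216a-5p, whose hairpins are neighbours, moved less. It was 6.54 at P1 (6.31 to 6.79), 6.39 at P7 (5.88 to 6.95) and 5.69 at P17 (5.09 to 6.36). The 3 intervals overlapped, those of P1 and P17 only narrowly, and such overlap does not exclude a small decline. The opposite arms did not show the shift between miR-216a and miR-216b beyond counting error. The ratio of miR-216a-3p to miR-216b-3p was 1.87 at P1 (1.72 to 2.03), 1.73 at P7 (1.37 to 2.21) and 1.76 at P17 (1.29 to 2.41), and the interval at P17 allows a rise of the ratio as well as a decline.

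The 5p arm was the major arm of all 3 hairpins at every age, but to different degrees. Of the miR-217 reads, 99.4% were 5p at P1 (99.2 to 99.5), 99.3% at P7 (99.0 to 99.5) and 99.5% at P17 (99.1 to 99.8), with overlapping intervals. Of the miR-216b reads, 95.4% were 5p at P1 (95.1 to 95.7), 95.5% at P7 (94.6 to 96.3) and 92.7% at P17 (90.8 to 94.3). The share at P17 was lower than at both earlier ages by more than counting error. Of the miR-216a reads, 68.0% were 5p at P1 (66.7 to 69.3), 76.8% at P7 (73.8 to 79.6) and 76.0% at P17 (72.0 to 79.7), so that the 3p arm, with 32.0% of the reads at P1, was relatively most frequent at that age. The 2 hairpins with similar 5p forms thus moved in opposite directions and at different steps.

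For comparison, the change in the log2 ratio of 5p to 3p reads was taken over all 191 hairpins with both arms past the filter. From P1 to P17 it was -0.74 for miR-216b, 0.57 for miR-216a and 0.39 for miR-217, while the median of all was 0.17 and the middle 90% lay between -1.89 and 1.76. The changes of the 3 hairpins all lay within that range. In 55.5% of the 191 hairpins the 5p arm was the major one at P1, as in these 3.

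**Figure D5:**
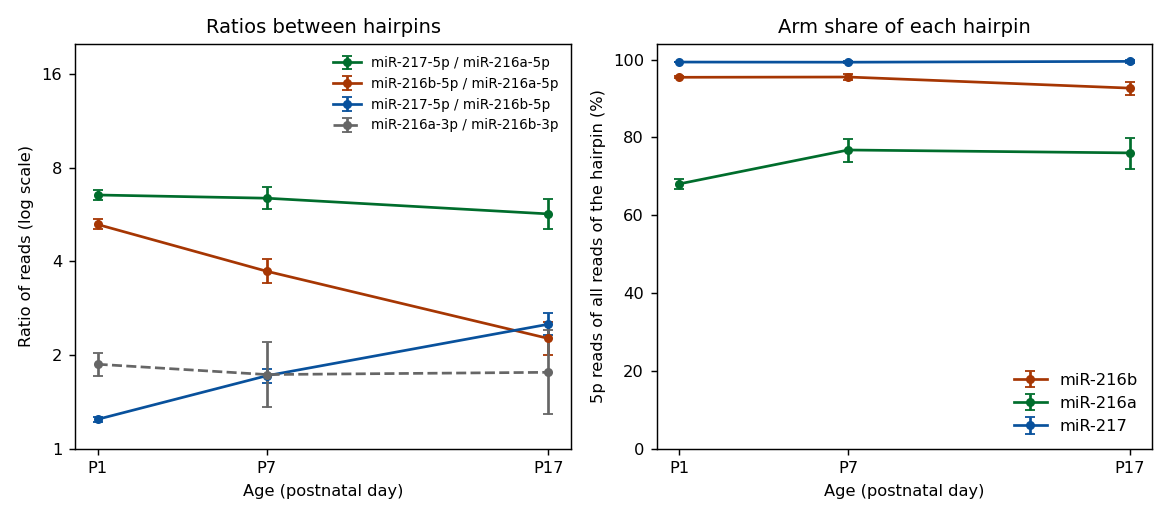
Left, ratios of reads between members within each library (log axis), and right, percent of each hairpin's reads that are 5p, both against age with exact binomial 95% intervals. The ratio of miR-216b-5p to miR-216a-5p goes from 5.26 down to 2.26 while the ratio of the 3p forms (dashed) stays between 1.73 and 1.87, and the 5p share of miR-216a goes from 68.0% to 76.0%.

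The miRNAs whose pattern over the 3 libraries was nearest to each member were found by the Euclidean distance between log2(RPM + 1) values centred on their mean. With 3 libraries such a likeness is weak, and many miRNAs share a pattern. The nearest to miR-217-5p was miR-216a-5p and the reverse, at a distance of 0.17, and the nearest to miR-216a-3p was miR-216b-3p, at 0.14. For miR-216b-5p the 3 nearest were no members. They were miR-6540-5p at 0.18 (584, 81.1 and 31.0 RPM at P1, P7 and P17), miR-450b-5p at 0.21 (81.1, 10.97 and 3.52 RPM) and miR-25-5p at 0.42 (134, 23.4 and 6.35 RPM). The nearest member to miR-216b-5p was miR-216a-3p, at 0.64. For miR-217-3p the nearest were miR-363-3p, miR-200c-3p and miR-92b-5p, at 0.03 to 0.08. This nearness rests on the 10 reads of miR-217-3p at P17 and on the added 1 RPM. The other nearest miRNAs were miR-466f-5p and miR-669b-5p for miR-216a-5p and miR-466f for miR-217-5p, which belong to a family of near-identical copies whose reads the counting could have split, and which had 4 to 64 reads at P17.

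Other miRNAs that are abundant in pancreas differed in direction among themselves. Of the 11 in the list, 8 passed the filter. From P1 to P7, 6 of the 8 were over 2-fold lower and none higher, with a median of -1.40 on the log2(RPM + 1) scale against -0.87 for all miRNAs, of which 44.8% were lower. With size factors 3 were lower, the miR-200 forms, and 1 higher, miR-375-3p, where 10.96% of all miRNAs were lower. From P7 to P17, 1 was over 2-fold higher and none lower, with a median of 0.12. From P1 to P17, 5 were lower and 1 higher, with a median of -1.78 against -0.91, where 46.8% of all were lower. With size factors 2 were lower, miR-148a-5p at -1.02 and miR-200c-3p at -1.92, where 23.8% of all were, and miR-148a-3p (0.29) and miR-7b-5p (0.41) changed sign. MiR-375-3p, a miRNA of the insulin-secreting islet cells, went the opposite way to the cluster, with 9.10, 12.4 and 197 RPM in order of age. MiR-148a-3p, also abundant in acinar cells, had 27983 RPM, 19358 RPM and 16620 RPM, a difference of less than 2-fold. The epithelial miRNAs miR-200a-3p, miR-200b-3p and miR-200c-3p were rare at P1, with 10.9, 13.2 and 17.3 RPM, and were 2.40, 2.83 and 1.63 RPM at P17. MiR-7a-5p, a neuroendocrine miRNA, had 55878, 20143 and 16693 RPM in order of age, so that its difference of -1.74 from P1 to P17 was smaller than that of any member. MiR-148a-5p differed by -2.04 and miR-7b-5p by -0.63 from P1 to P17, while miR-375-5p had no reads and miR-141-3p and miR-429-3p were below the filter.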

How the data were processed

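Total RNA (1 μg per library) from pooled retinas was made into small RNA libraries and sequenced by the authors with reads of 50 nt. Adaptor sequence and reads of poor quality were discarded by the authors, and the clean reads were mapped to mm10. The paper names HISAT2 as the aligner, whereas the submitters' processing notes name BWA and FastQC, and the miRNA annotation and counting rule are not given in the sources used here. The authors deposited a raw read count for each of 1915 mature miRNAs per library. The deposited RPM values are the count scaled to 1000000 miRNA reads in the same library, to within 0.0192 RPM. No reads were realigned.

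The samples were grouped by the age in the labels, 1 library each (in order of age 11426320, 12759995 and 11659722 reads). The published criterion was a fold above 2 with an adjusted p-value, of which only the fold was applied, on log2(RPM + 1), to miRNAs averaging 1 RPM or more, since without replicates there is no spread to test against. RPM values carry Wilson intervals, and folds (ratios of reads per library total) and shares carry exact binomial intervals, at 95%, for counting error only. Arm ratios over all hairpins had 0.5 reads added to each arm. The named miRNAs are the 6 members, the 3 miRNAs nearest in pattern to each, a list of pancreas miRNAs and any miRNA with the same seed. The members and lists were chosen with earlier results of these data known. Alternatives were 4 other scalings, pseudocounts of 0.1 and 5 RPM, filters and fold limits. Median-of-ratios size factors (644 miRNAs) in order of age were 1.503, 0.862 and 0.743, and TMM factors 1.599, 0.808 and 0.774. Before use, the calculations were tested on simulated counts with known folds and counting error only. Abundant miRNAs were left unchanged there, so that this test did not cover the shift in scaling between the real libraries. Positions came from GENCODE (GRCm38) and RefSeq (GRCm38.p6). TMM factors came from edgeR 4.0.16 in R 4.3.3, and all else from Python 3.11.15 with scipy 1.17.1, statsmodels 0.14.6, pandas 2.3.3, numpy 2.4.6 and matplotlib 3.10.9.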

Additional observations from a re-analysis of the deposited data

How the results depend on the processing

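The sum of the cluster was lower at the later age in each pair of ages under all scalings and pseudocounts tried, and its size moved mainly with the scaling. From P1 to P7 it was -2.78 for RPM, -1.82 for median-of-ratios size factors, -1.79 for TMM factors, -2.16 after dropping from the total the 13 miRNAs that were among the 10 most abundant of a library, and -2.37 after dropping the miR-183, miR-96 and miR-182 forms. In the same order the difference over both steps was -3.72, -2.68, -2.68, -3.35 and -3.32. For P17 against P7 it was -0.94 with RPM, -0.86 with size factors, -0.88 with TMM factors and -1.19 after dropping those 13. The cause of these shifts was not tested, but each scaling moves all miRNAs nearly alike. Pseudocounts and the 5p members alone gave sums within the counting interval.

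All 6 members stayed over 2-fold lower at P7 and at P17 than at P1 under each alternative that kept them, and a filter of 10 RPM left 5 because miR-217-3p did not pass it. The share of all miRNAs called lower at P7 than at P1 ran from 8.64% (fold of 4) to 66.4% (fold of 1.5). At P17 against P1 it ran from 16.7% (no filter) to 59.9% (fold of 1.5). As above, nothing is read from the counts of members. The count of 1 member from P7 to P17 was 3 after dropping those 13 miRNAs from the total, 2 with a pseudocount of 0.1 RPM, 4 at a fold of 1.5 and 0 at a fold of 4. Of all 648 miRNAs, 75 (11.6%) were lower at that step with RPM, and under these alternatives 149 (23.0%), 106 (16.4%), 177 (27.3%) and 14 (2.16%). Among 108 values for single members, all were below 0 and 50 moved beyond counting error. Among 288 values for the other named miRNAs past the filter, 127 did and none changed sign after an over 2-fold difference. The pancreas miRNAs over 2-fold lower were 6 of 8 at P7 and 5 of 8 at P17 against P1 with RPM, but 3 and 2 with either size factors or TMM factors. Shares and ratios within a library have no scaling. Depth limits miR-217-3p most, with 10 reads at P17. No paired analysis was possible because there was a single library at each age.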
